A study of Mus musculus with 3 samples.

Results

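The genes that copy DNA and supply its building blocks were followed across osteogenic culture of mouse marrow stromal cells. The set held 47 genes of the 20279 genes with a named probe: the origin, helicase, polymerase, clamp and lagging-strand proteins of the replication fork, the enzymes of deoxynucleotide supply, the E2F factors and E-type cyclins that regulate these genes, and the chromatin assembly factors that follow the fork. They were listed by name from their known roles, with earlier results of these arrays in view, and all 47 had a probe: 40 had 1 probe and 7 had 2.

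The samples were 3 one-colour Agilent arrays of Cy3-labelled RNA, with 1 array for each group. The groups were primary mesenchymal stem cells (MSCs) of bone marrow before induction (day 0), the osteogenic culture at day 3 and the osteogenic culture at day 21. All cells came from 8-week-old male mice, whose strain and number are not given in the labels, and were grown in αMEM with 10% serum. The day 3 and day 21 cultures also received 50 μg/mL ascorbic acid, a cofactor of collagen maturation, and 10 mM β-glycerophosphate, a phosphate source for mineral. With 1 array per group, differences between days have no replicate check and are given without a test or p-value.

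Each chromosome is copied once per division. In G1 the origin recognition complex, Cdc6 and Cdt1 load the ring of Mcm2 to Mcm7 onto origins, and at the start of S phase Cdc45 and the GINS complex turn that ring into a moving helicase. Cyclin E with its kinase releases E2F factors from the retinoblastoma protein, and E2F then drives transcription of most of these genes, so their RNA is abundant in dividing cells and scarce in resting ones.

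Levels are given as relative signal, the linear array signal divided by that array's 75th percentile over all non-control spots. Probes differ in how they bind, so levels are compared between days for 1 probe and not between genes. Differences are log2 values, later day minus earlier day, and a gene was called higher or lower when it was well above background on both arrays and differed by at least 2-fold. The scanner's error model gave a technical SD of about 0.20 for a log2 difference of a bright probe, and 251 probes spotted 10 times gave 0.17. Both cover the array alone.

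By the probe used for each gene, its brightest, the day 0 array showed 46 of the 47 genes well above background, the day 3 array 45 and the day 21 array 42. Ccne2, the second E-type cyclin gene, was not above background on any array, at a relative signal of 0.0117 at day 0, 0.0121 at day 3 and 0.0101 at day 21. Over the whole array the detected share was close between days, between 46.8% and 48.8% of non-control spots. The day 3 sample lay on slide 2 with a scan of its own, and slide 1 carried both other samples, so an effect of the slide and one of day 3 cannot be told apart. Dividing-cell markers moved with the replication genes: Mki67, Top2a, Ccnb1, Cdk1 and Birc5 summed to a relative signal of 65.7 at day 0, 35.4 at day 3 and 5.34 at day 21. In bulk RNA, fewer dividing cells and less RNA per dividing cell cannot be told apart.

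Markers of the labelled cells were present in part. All 9 marrow stromal markers were above background on all 3 arrays, and of 7 osteoblast markers day 0 had 4 above background and both later days had 6. Their summed relative signals at day 0, 3 and 21 were 407, 707 and 916 for the stromal markers and 362, 389 and 293 for the osteoblast markers, with most of the osteoblast sum from Col1a1 (358, 374 and 258). Of the 9 stromal markers at day 21 against day 0, 3 were at least 2-fold higher, with Pdgfra the highest at 5.12. Cd44 was at least 2-fold lower, at -2.62, and 5 were within 2-fold. Ibsp and Alpl, a bone matrix protein and the bone alkaline phosphatase, had 3.77 and 1.72 at day 21 and were not above background at day 0, and Bglap2 (osteocalcin) and Spp1 (osteopontin) were 11.9-fold and 6.67-fold higher at day 21 than at day 0. The other 2 osteoblast markers measured on both arrays, Col1a1 (-0.47) and Runx2, were lower at day 21 than at day 0, within 2-fold. Sp7, an osteoblast transcription factor, was not above background on any array, nor was the blood cell marker Ptprc. The 7 adipocyte markers, of which day 0 had 5 above background and both later days had all 7, summed to 8.22 at day 0, 39.4 at day 3 and 999.8 at day 21. Markers of chondrocytes summed to 71.6, 69.1 and 314 at day 0, 3 and 21, where Comp alone had 256 at day 21, against 2.52 at day 0. Of these 4 markers, Comp and Sox9 were at least 2-fold higher at day 21 than at day 0. Acan (-0.97) and Col2a1 (-0.32) were lower at day 21 than at day 0, within 2-fold. Markers of blood cells, mostly Itgam (55.9 at day 0), summed to 61.9, 56.3 and 86.8, those of osteoclasts to 38.2, 73.7 and 74.6, and those of endothelial cells to 21.0, 28.2 and 16.8. Of 7 blood cell markers with a probe, 4 were above background on all 3 arrays. At day 21 against day 0, Lyz2 of these 4 was at least 2-fold higher (1.55) and 3 were within 2-fold. Of 3 measured osteoclast markers, Acp5 was at least 2-fold higher (3.57) and 2 were within 2-fold. The 2 measured endothelial markers were within 2-fold. The part of these cells in the results on replication genes was not tested.

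Replication genes were somewhat lower at day 3 and several-fold lower at day 21. At day 3, 9 of 45 measured members were at least 2-fold lower than at day 0 and 0 were higher, beside 7.85% of all 12455 measured genes lower and 7.73% higher. Their median difference was -0.57, against -0.08 over all measured genes. The 9 were E2f7, Rrm2, Uhrf1, E2f8, Mcm10, Pole, Prim1, Cdc6 and Mcm6. Many members lay near the threshold, 10 of them within 0.17, the repeat-spot SD. Just inside were Prim1 (-1.05), Cdc6 (-1.02) and Mcm6 (-1.01), and just outside were Fen1 (-0.96), Rpa1 (-0.94) and Chaf1b (-0.89). The second Chaf1b probe was at -1.18. At 1.5-fold, 22 of 45 members were lower, beside 19.2% of all genes, and at 3-fold only E2f7 was, 1 of 45, beside 2.52%. The E2f7 calls rest on its brighter probe alone, since its second probe was at -0.14. The count of 9 was 31 when arrays were set equal on the added control RNAs (spike-in scaling), beside 26.6% of all genes lower. It was 18, beside 14.7%, when the arrays were set equal on the median of 13 reference genes (reference gene scaling). It was 4, beside 6.40%, with those genes centred per gene first, a setting chosen after seeing the data. With normexp background correction it was 5, beside 4.42% of all genes.

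At day 21, 33 of 42 measured members were at least 2-fold lower than at day 0 and 0 were higher, beside 16.8% of all 12387 measured genes lower and 12.8% higher. Another 4 members, Cdc6, Orc1, E2f7 and E2f8, were above background at day 0 but not at day 21 on their brightest probe and lower by a bound of at least 2-fold, beside 72.8% of the 548 genes detected that way. For E2f7 this rests on that probe alone, since a second, dimmer probe was above background on all 3 arrays and differed by -0.70 at day 21. Such a bound divides the day 0 value by the dim probe's signal at day 21, or by the lowest signal detected on that array where this is higher. For E2f7 and E2f8 the dim signal was the higher of these. Their bounds are therefore plain ratios to a dim value, with error SDs of 0.40 and 0.50 in log2 units. The median of the measured members was -1.52, a 2.87-fold lower signal, against -0.21 over all genes. At 3-fold 18 of 42 were lower, beside 6.77% of all genes, at 4-fold 16 of 42, beside 4.2%, and at 8-fold 5 of 42, beside 1.46%. These 5 were Uhrf1, Tk1, Mcm10, Chaf1b and Mcm5. The count of 33 was 25 with reference gene scaling, beside 8.36% of all genes, and 26, beside 8.78%, with reference genes centred per gene. It was 28 with normexp, beside 11.4%, and 36 with spike-in scaling, beside 25.9%.

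Between day 3 and day 21, 21 of 42 measured members were at least 2-fold lower at day 21 and 0 were higher, beside 7.11% of all 12739 genes lower and 7.75% higher. Another 3, Cdc6, E2f7 (on its brightest probe) and E2f8, were lower by a bound, beside 60.6% of the 381 genes detected at day 3 but not at day 21. The median was -1.0, against -0.10 over all genes. With reference gene scaling the count was 10 and the median -0.27, and over all genes 220 were then lower and 3420 higher, beside 906 lower and 987 higher in the main setting. At 1.5-fold 32 members were lower, beside 19.6% of all genes, and at 3-fold 10, beside 2.14%. Just inside the 2-fold threshold were Rfc5 (-1.12), Fen1 (-1.11) and Gmnn (-1.01), and just outside were Rfc3 (-0.98), Chaf1a (-0.97) and Dut (-0.96).

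Among the 42 members above background on all 3 arrays, 36 (85.7%) were lower at day 3 than at day 0 and lower again at day 21, beside 35.6% of 12221 genes. The exceptions were Gins3, Gins4, Rpa3, Rrm1, E2f1 and E2f2. With reference gene scaling the count was 29, beside 10.8% of all genes, and with spike-in scaling 39, beside 33.6%. In 35 of the 42 the later step was the more negative one, but this depended on the scaling: it was 13 of 42 with spike-in scaling and 12 of 42 with reference gene scaling. Which interval held the larger part of the difference is therefore not settled by these arrays, whereas the difference between day 21 and day 0 was below 0 in 38 to 41 of 42 members under those scalings and in 40 in the main setting.

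**Figure D1:**
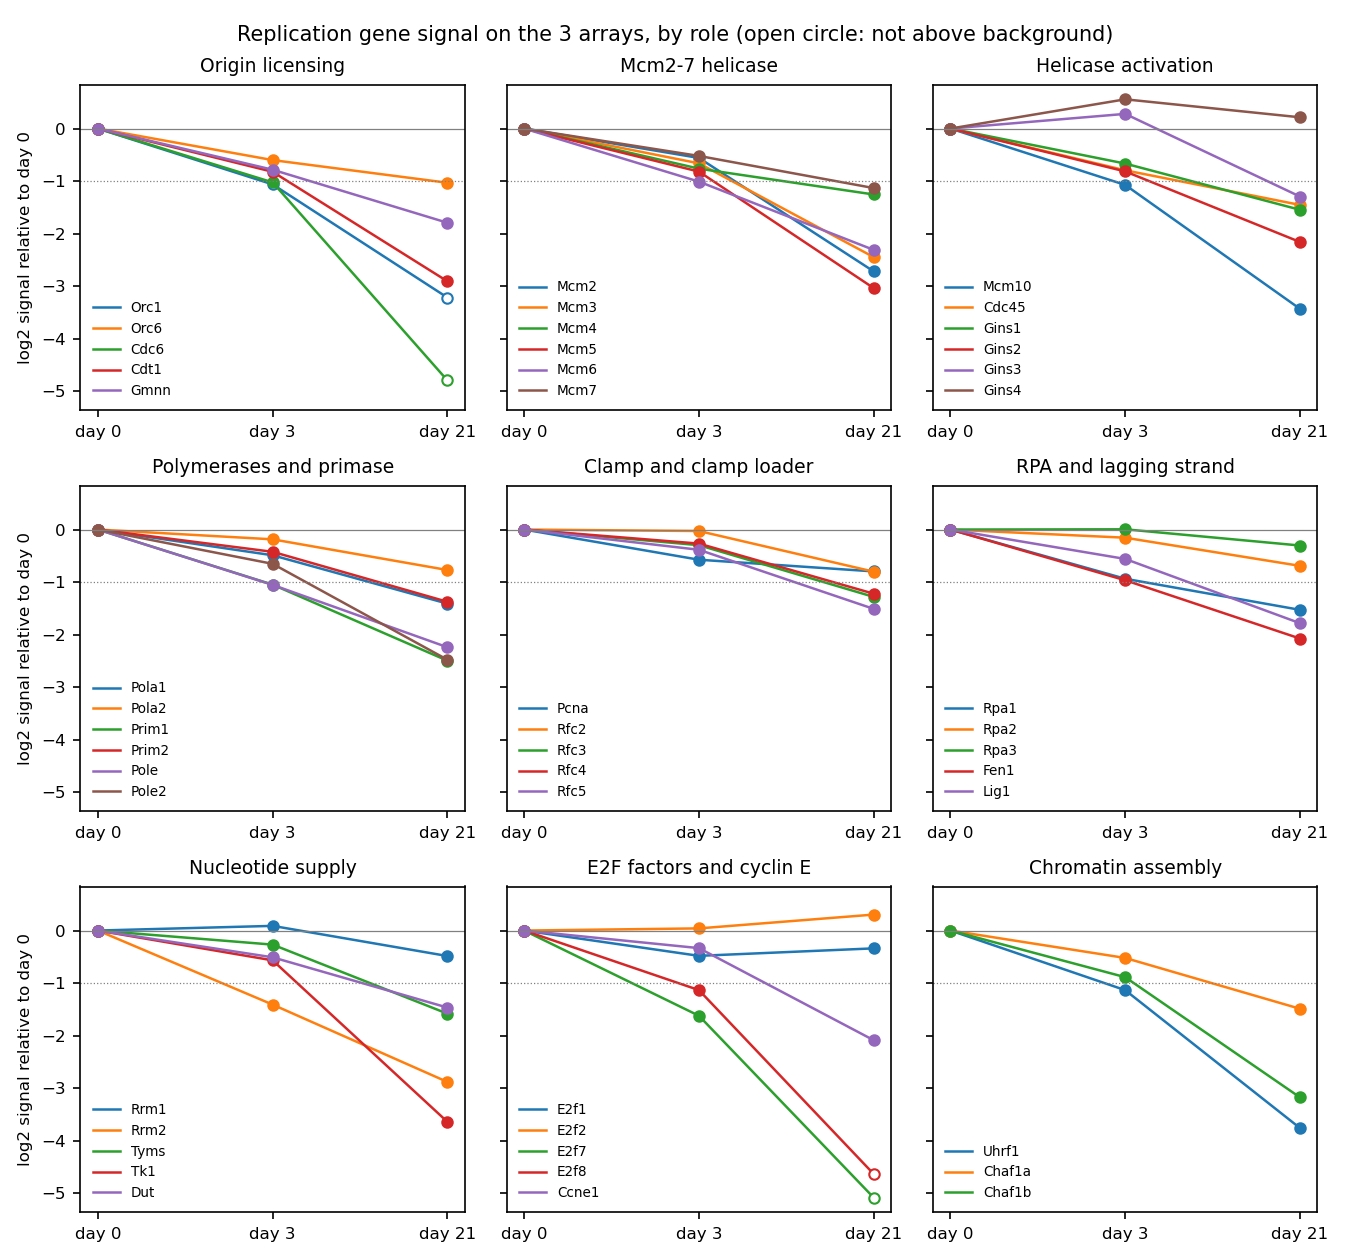
Signal of the members on the 3 arrays, as log2 of the relative signal minus its day 0 value, in 9 panels by role. Each line is 1 gene, an open circle is a value not above background, and the dotted line is 2-fold below day 0; most lines fall below the dotted line at day 21, while those of Gins4 and E2f2 end above 0.

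**Figure D2:**
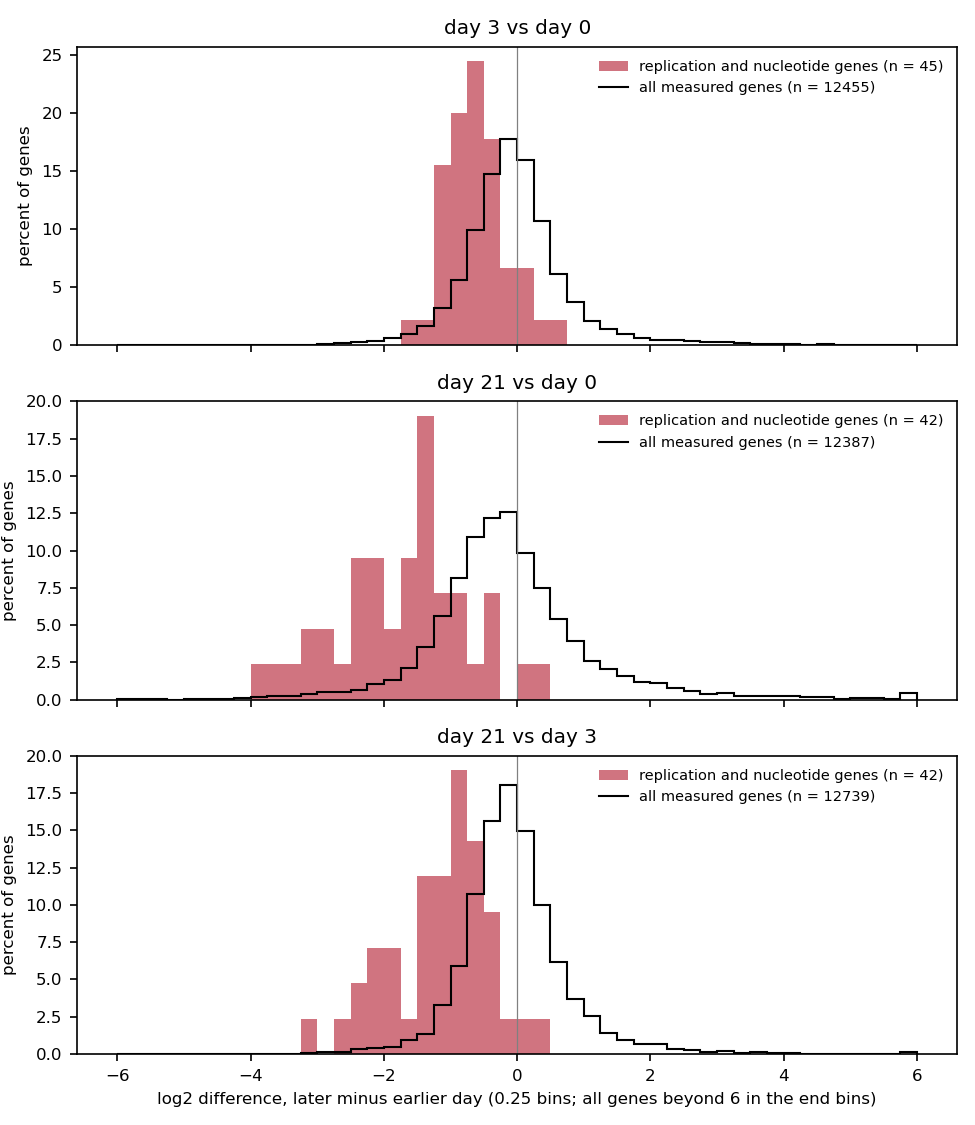
Share of genes in each 0.25 bin of the log2 difference, for the measured members (filled) and all measured genes (line), in the 3 comparisons. The members sit left of all genes in each panel, with medians of -0.57 (day 3 against day 0), -1.52 (day 21 against day 0) and -1.0 (day 21 against day 3).

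Licensing proteins mark origins before S phase, and all 5 were lower at day 21. Cdc6, the ATPase that loads the helicase with ORC, had a relative signal of 0.334 at day 0, 0.164 at day 3 and 0.0120 at day 21, the last not above background. It was 2.03-fold lower at day 3 and at least 7.72-fold lower at day 21 than at day 0, and its second probe, with 0.211, 0.0597 and 0.0126 at day 0, 3 and 21, was above background at day 0 only. Orc1, the large ATPase subunit of the origin recognition complex, had 0.117 at day 0, 0.0560 at day 3 and 0.0126 at day 21. It was above background at day 0 only, and at least 2.70-fold lower at day 21; the bound at day 3 was 1.94-fold.

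Cdt1, which brings the Mcm ring to origins, differed by -0.82 at day 3 and by -2.91 (7.5-fold lower) at day 21. Geminin, Gmnn, which binds Cdt1 and blocks relicensing, differed by -0.78 at day 3 and -1.79 at day 21. The least affected of the group was Orc6, another origin recognition subunit, with 13.8 at day 0, 9.07 at day 3 and 6.73 at day 21. Its difference at day 21 was -1.03, just past the threshold. Both the loader Cdt1 and its inhibitor Gmnn were thus below day 0 on both later arrays, with the more negative difference for the loader at day 21.

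The Cdc6 promoter is shown because Cdc6 was among the genes that left the detected range and because it holds 1 of the E2F motif matches described further on. It lies at chr11:98907901-98908200 on the plus strand in build GRCm38.p6, from 250 bases before to 50 after the gene start in RefSeq, and the capitals mark the match.
Cdc6: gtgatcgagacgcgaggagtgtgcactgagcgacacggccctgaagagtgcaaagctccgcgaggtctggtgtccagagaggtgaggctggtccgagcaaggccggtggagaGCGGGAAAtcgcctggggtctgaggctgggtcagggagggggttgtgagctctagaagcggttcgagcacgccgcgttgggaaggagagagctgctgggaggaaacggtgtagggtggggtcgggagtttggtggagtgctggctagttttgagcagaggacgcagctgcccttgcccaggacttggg

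Mcm2 to Mcm7 form the 6-part ring of the replicative helicase, and all 6 were at least 2-fold lower at day 21 than at day 0. Mcm5 had a relative signal of 6.36 at day 0, 3.6 at day 3 and 0.775 at day 21, 8.20-fold lower at day 21. Mcm2 had 2.13 at day 0, 1.44 at day 3 and 0.323 at day 21, 6.58-fold lower. At the other end, Mcm7 had 17.2 at day 0, 12 at day 3 and 7.84 at day 21, only 2.19-fold lower. The 6 subunits of 1 ring did not differ by the same amount: 4 of them, Mcm2, Mcm3 (-2.45), Mcm5 and Mcm6 (-2.31), were below -2 at day 21, and Mcm4 (-1.25) and Mcm7 (-1.13) were near -1.

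At day 3 the 6 lay closer together, between -1.01 (Mcm6) and -0.52 (Mcm7), with a group median of -0.71. Only Mcm6 passed 2-fold, with 41.2 at day 0, 20.5 at day 3 and 8.32 at day 21. The group median was -2.38 at day 21 against day 0 and -1.54 at day 21 against day 3, where Mcm4 (-0.49) and Mcm7 (-0.61) were within 2-fold and turned to 0.24 and 0.12 with reference gene scaling.

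The promoters of 4 Mcm genes are shown because each holds 2 or 3 E2F motif matches, in capitals, and because the genes span the group's range of differences. In GRCm38.p6 they lie at chr1:20820263-20820562 (Mcm3), chr8:75109259-75109558 (Mcm5), chr1:128359656-128359955 (Mcm6) and chr5:138171834-138172133 (Mcm7). Mcm5 is on the plus strand and the others on the minus strand. In Mcm5 and in the upstream block of Mcm6, matches on the 2 strands overlap and form 1 run of capitals.
Mcm3: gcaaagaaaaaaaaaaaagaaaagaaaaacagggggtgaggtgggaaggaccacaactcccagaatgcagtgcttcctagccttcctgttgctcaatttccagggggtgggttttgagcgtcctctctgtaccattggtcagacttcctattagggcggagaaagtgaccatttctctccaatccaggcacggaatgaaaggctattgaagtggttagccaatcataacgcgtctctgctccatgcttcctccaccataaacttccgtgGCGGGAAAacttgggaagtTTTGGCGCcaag
Mcm5: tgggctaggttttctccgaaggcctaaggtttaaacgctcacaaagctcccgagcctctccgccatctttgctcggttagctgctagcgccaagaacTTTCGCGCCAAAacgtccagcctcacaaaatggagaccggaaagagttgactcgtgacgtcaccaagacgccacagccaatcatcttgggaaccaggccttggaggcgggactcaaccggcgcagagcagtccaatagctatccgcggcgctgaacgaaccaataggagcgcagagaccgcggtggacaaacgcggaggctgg
Mcm6: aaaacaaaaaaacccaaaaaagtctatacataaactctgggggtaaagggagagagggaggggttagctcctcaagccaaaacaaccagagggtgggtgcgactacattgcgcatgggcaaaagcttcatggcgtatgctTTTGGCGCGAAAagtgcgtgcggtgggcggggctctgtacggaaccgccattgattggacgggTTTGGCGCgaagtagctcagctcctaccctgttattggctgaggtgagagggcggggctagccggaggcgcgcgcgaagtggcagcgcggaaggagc
Mcm7: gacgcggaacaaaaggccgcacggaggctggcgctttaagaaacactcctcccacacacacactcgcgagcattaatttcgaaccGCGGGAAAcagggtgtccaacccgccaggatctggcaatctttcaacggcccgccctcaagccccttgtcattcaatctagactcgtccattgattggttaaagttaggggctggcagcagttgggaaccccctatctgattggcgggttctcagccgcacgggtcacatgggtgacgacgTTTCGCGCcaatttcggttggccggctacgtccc

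Genes that switch the loaded ring into an active helicase split into a group that was lower and 1 gene that was not. Mcm10, which is needed for origin firing, had a relative signal of 1.99 at day 0, 0.946 at day 3 and 0.185 at day 21. It was 2.10-fold lower at day 3 and 10.8-fold lower at day 21 than at day 0. Gins2, a GINS subunit, had 4.74 at day 0, 2.69 at day 3 and 1.06 at day 21, and was 4.46-fold lower at day 21. Cdc45, the helicase cofactor, and Gins1 were also more than 2-fold lower at day 21, at -1.45 and -1.55; Cdc45 was dim, at 0.0779 on the day 21 array, and its error SD was 0.32.

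The 4 subunits of the GINS complex did not move together. Gins3 had 43.3 at day 0, 52.6 at day 3 and 17.7 at day 21, so it was not lower at day 3 (0.28) and was lower at day 21 (-1.29). Gins4 had 3.27 at day 0, 4.81 at day 3 and 3.80 at day 21, with differences of 0.56 at day 3 and 0.21 at day 21 against day 0. Gins4 was the highest of all measured members at day 3, and it was within 2-fold in every comparison. With spike-in scaling its sign turned, to -0.01 at day 3 and -0.06 at day 21, and Gins3 was at -0.28 at day 3 against day 0.

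Polymerase alpha with primase starts each strand and polymerase epsilon extends the leading strand. Of these 6 genes, 5 were at least 2-fold lower at day 21. Prim1, the catalytic primase subunit, had a relative signal of 6.16 at day 0, 2.98 at day 3 and 1.09 at day 21, 2.07-fold lower at day 3 and 5.64-fold lower at day 21 than at day 0. Pole2, the second subunit of polymerase epsilon, had 0.532 at day 0, 0.338 at day 3 and 0.0955 at day 21, 5.57-fold lower at day 21. The catalytic subunit Pole differed by -1.05 at day 3 and -2.24 at day 21 on its bright probe; its second probe was not above background on any array.

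Subunits of 1 enzyme again differed in size. Pola1, the catalytic subunit of polymerase alpha, was at -1.41 at day 21, and its partner Pola2 had 0.171 at day 0, 0.150 at day 3 and 0.10 at day 21, a difference of -0.77 with an error SD of 0.32. Prim2, the large primase subunit, was at -1.37, more than 1 log2 unit above Prim1 at -2.50.

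The sliding clamp and its loader had the group median nearest 0 at day 3 (-0.30), when 0 of 5 were 2-fold lower. Pcna, the ring that tethers polymerases to DNA, had a relative signal of 20.6 at day 0, 13.8 at day 3 and 11.9 at day 21, 1.74-fold lower at day 21 than at day 0. Rfc5 of the clamp loader had 9.79 at day 0, 7.5 at day 3 and 3.44 at day 21, and was 2.85-fold lower. Rfc3, another loader subunit, had 0.901 at day 0, 0.733 at day 3 and 0.371 at day 21, 2.43-fold lower. Rfc5, Rfc3 and Rfc4 (-1.22) passed 2-fold at day 21, and Rfc2 (-0.80) and Pcna (-0.80) did not. Pcna is widely used as a marker of proliferation, and it was among the 9 of 42 measured members within 2-fold of day 0 at day 21. Its difference of -0.22 between day 21 and day 3 turned to 0.07 with spike-in scaling and 0.51 with reference gene scaling.

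Replication protein A coats single-stranded DNA, and Fen1 and Lig1 trim and seal Okazaki fragments. Fen1, the flap nuclease, had a relative signal of 10.7 at day 0, 5.49 at day 3 and 2.55 at day 21, 4.21-fold lower at day 21 than at day 0. Lig1, the replicative DNA ligase, had 12.2 at day 0, 8.26 at day 3 and 3.54 at day 21, 3.44-fold lower. Rpa3 had 12.9 at day 0, 13.0 at day 3 and 10.5 at day 21, the smallest difference of the group. The 3 subunits of replication protein A, which work as 1 trimer, were at -1.53 (Rpa1), -0.69 (Rpa2) and -0.30 (Rpa3) at day 21, so only Rpa1 passed 2-fold, and Rpa3 turned to 0.13 with reference gene scaling.

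Nucleotide supply held members with large differences and, in Rrm1, a small one. Tk1, the thymidine kinase of S phase, had a relative signal of 8.42 at day 0, 5.68 at day 3 and 0.675 at day 21. It was 1.48-fold lower at day 3 and 12.5-fold lower at day 21 than at day 0, and its difference of -3.07 between day 21 and day 3 was the lowest of the 42 members measured on both arrays. Rrm2, the small ribonucleotide reductase subunit, which is made in S phase, had 40.7 at day 0, 15.3 at day 3 and 5.53 at day 21, 2.66-fold lower at day 3 and 7.36-fold lower at day 21.

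Rrm1, the large reductase subunit, had 17.3 at day 0, 18.4 at day 3 and 12.4 at day 21. Its differences were 0.09 at day 3, which turned to -0.47 with spike-in scaling, and -0.48 at day 21, so of the 2 subunits of 1 enzyme only Rrm2 passed 2-fold. Thymidylate synthase, Tyms, was at -1.58 and the dUTPase gene Dut at -1.47 at day 21, and neither passed 2-fold at day 3 (-0.27 and -0.51).

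Among the regulators, E2f7 and E2f8, the atypical E2F factors that repress E2F targets late in S phase, had the largest bounds on the fold at day 21 of all members, E2f7 on 1 of its 2 probes. E2f7 had a relative signal of 1.88 at day 0, 0.611 at day 3 and 0.0555 at day 21 on its brighter probe, the last not above background. On that probe it was 3.08-fold lower at day 3 and 33.9-fold lower at day 21, the latter a plain ratio to a dim value. E2f8 had 1.1 at day 0, 0.50 at day 3 and 0.0443 at day 21, again not above background at day 21. It was 2.19-fold lower at day 3 and, by the same kind of ratio, 24.8-fold lower at day 21.

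The second E2f7 probe, assigned to the same transcript, did not follow the first. It had 0.296 at day 0, 0.268 at day 3 and 0.183 at day 21, with differences of -0.14 and -0.70 against day 0. The 2 probes differed by 1.48 log2 units at day 3, the only gap of 1 or more among members with 2 measured probes, so the size for E2f7 is uncertain. The other such pairs, Ccne1, Chaf1b and Rfc4, agreed within 0.31 in every comparison.

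The activating factors E2f1 and E2f2 were within 2-fold in every comparison in the main setting. With spike-in scaling E2f1 was past 2-fold lower at day 3 against day 0 (-1.04). E2f1 had 6.45 at day 0, 4.62 at day 3 and 5.10 at day 21, with differences of -0.48 and -0.34 against day 0. E2f2 had 0.230 at day 0, 0.236 at day 3 and 0.283 at day 21, with differences of 0.04 and 0.30. Ccne1, the partner of Cdk2 at the start of S phase, had 17.0 at day 0, 13.5 at day 3 and 4.0 at day 21 and was 4.25-fold lower at day 21. The sign of E2f1 at day 21 turned to 0.09 with reference gene scaling and 0.06 with reference genes centred per gene, and that of E2f2 at day 3 turned under 3 settings, the lowest value being -0.52 with spike-in scaling.

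The E2f2 promoter, at chr4:136172024-136172323 on the plus strand in GRCm38.p6, is shown as that of a member that was not lower at day 21 but has an E2F motif match, in capitals, just after the gene start.
E2f2: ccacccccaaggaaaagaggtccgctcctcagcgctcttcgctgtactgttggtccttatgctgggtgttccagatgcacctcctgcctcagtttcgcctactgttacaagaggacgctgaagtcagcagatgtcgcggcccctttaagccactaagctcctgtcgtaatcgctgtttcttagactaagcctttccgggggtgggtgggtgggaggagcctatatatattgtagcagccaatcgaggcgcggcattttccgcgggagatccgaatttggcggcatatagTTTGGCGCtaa

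Chromatin factors that act behind the fork had the lowest group median at day 21, -3.17. Uhrf1, which recruits the maintenance methyltransferase to newly copied DNA, had a relative signal of 13.9 at day 0, 6.32 at day 3 and 1.03 at day 21. It was 2.19-fold lower at day 3 and 13.5-fold lower at day 21 than at day 0, the lowest difference (-3.76) among members measured on both arrays. Its second, dim probe was above background at day 0 only. Chaf1b, a subunit of the histone chaperone CAF-1, had 13.2 at day 0, 7.15 at day 3 and 1.47 at day 21, 9.02-fold lower at day 21, and its second probe gave 10.3-fold. Chaf1a, the large subunit, had 3.22 at day 0, 2.24 at day 3 and 1.15 at day 21, 2.80-fold lower.

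**Figure D3:**
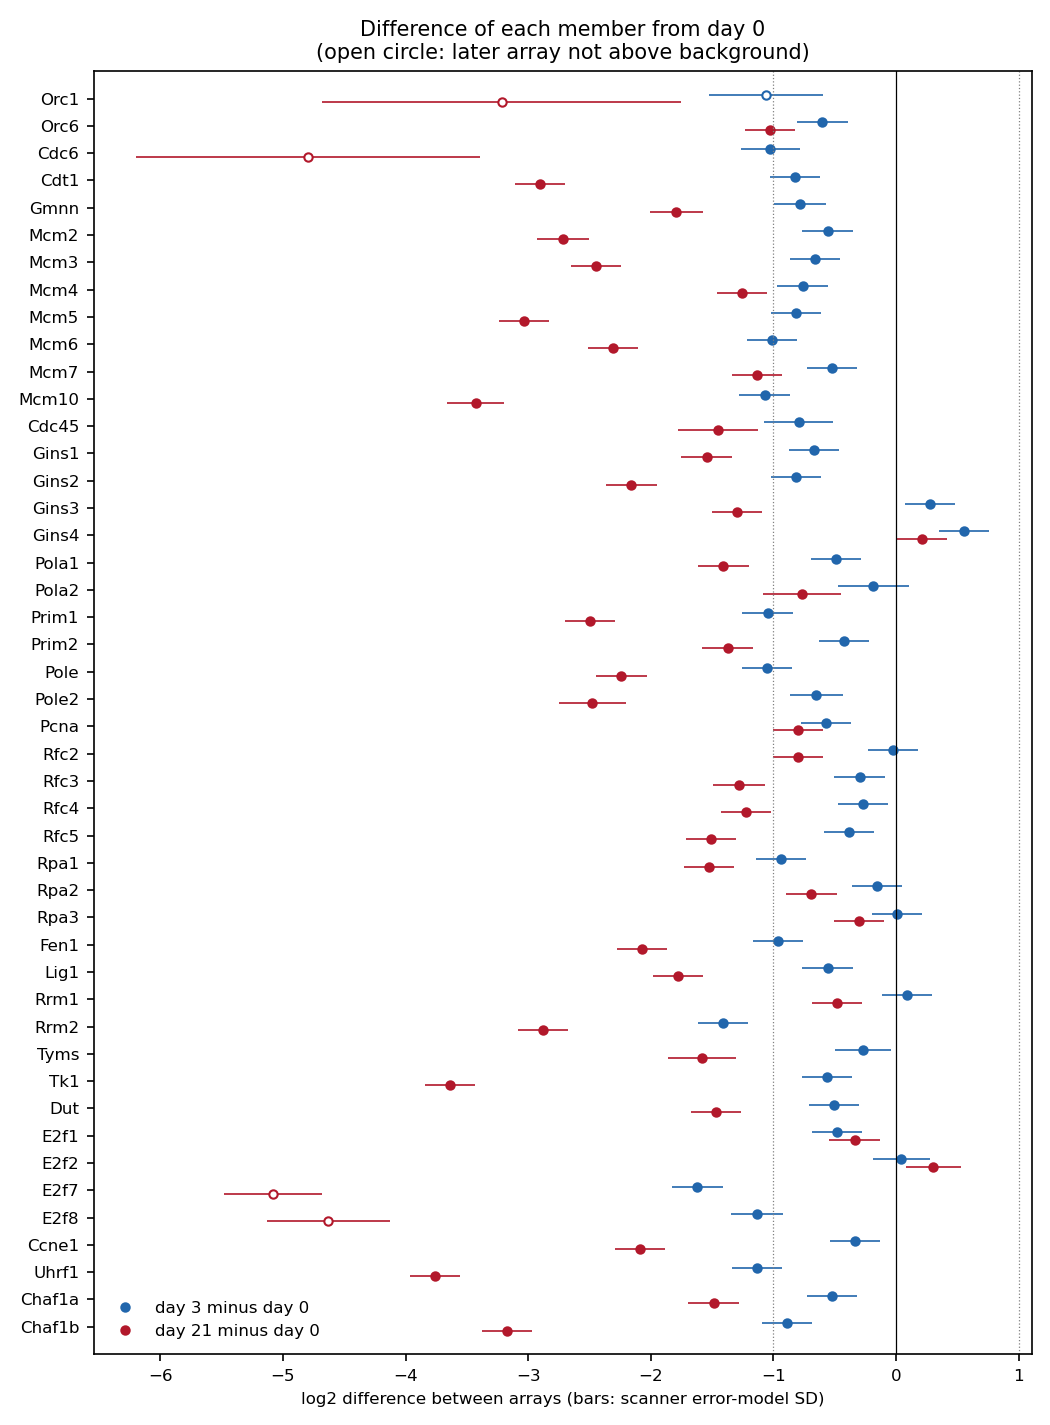
Log2 difference from day 0 for the 46 members above background at day 0, at day 3 (blue) and day 21 (red), with bars for the scanner's error-model SD of the array signals. Open circles mark a later value not above background, and the dotted lines mark 2-fold; the day 21 point lies left of the day 3 point in all but E2f1 and E2f2.

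Each role group held members at least 2-fold lower at day 21. The group medians at day 21 were -1.79 for 3 measured licensing genes, -2.38 for the helicase, -1.50 for its activators, -1.82 for polymerases and primase, -1.22 for clamp and loader, -1.53 for replication protein A and the lagging strand, -1.58 for nucleotide supply and -3.17 for chromatin. Of the regulators only E2f1, E2f2 and Ccne1 were measured on both arrays, with a median of -0.34, and E2f8, and E2f7 on its brighter probe, were lower by a bound. The members less than 2-fold lower at day 21 were Rfc2, Pcna, Pola2, Rpa2, Rrm1, E2f1 and Rpa3, and those above 0 were Gins4 and E2f2. The groups were set by known roles with earlier results of these arrays in view, and their medians describe these 3 arrays.

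Promoters were compared because most members were lower at day 21 and because E2F is their known shared regulator. The RefSeq table held a promoter of 300 bases for 38 members and for 27025 genes in all. Where a gene had several listed starts, the first was used. Mcm4, Gins1, Gins2, Gins4, Rfc2, Pole, Prim2, Ccne2 and Gmnn had no entry. The E2F motif was searched as TTTCCCGC, TTTGGCGC, TTTCGCGC or TTTGCCGC on both strands. At least 1 match was in 13 of 38 member promoters (34.2%), beside 2.32% of all promoters and 4.02% of the 10298 promoters of genes above background at day 0. Matches were in the promoters of Orc1, Cdc6, Cdt1, Mcm3, Mcm5, Mcm6, Mcm7, Gins3, Pola1, Pole2, Rfc3, E2f2 and E2f7, and 5 members had 2 or more. Over all listed starts 15 members had an E2F match, and the share of all genes was not counted that way.

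The CCAAT box, searched as CCAAT, was in 63.2% of member promoters, beside 38.6% of genes above background at day 0 and 37.9% of all. The GC box, GGGCGG, was in 73.7%, beside 63.1% and 35.9%. The CHR element TTTGAA, known from late cell-cycle genes, was in 13.2%, beside 12.1% and 18.1%. Over all listed starts, 24 members had a CCAAT box, 30 a GC box and 6 a CHR element. Some E2F matches overlap each other in reverse on the opposite strand, and no match says only that these letters are not in the window. Among members with a promoter, an E2F match was in 12 of 31 that were at least 2-fold lower at day 21 and in 1 of 7 that were not, with E2f7 counted by its brighter probe.

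**Figure D4:**
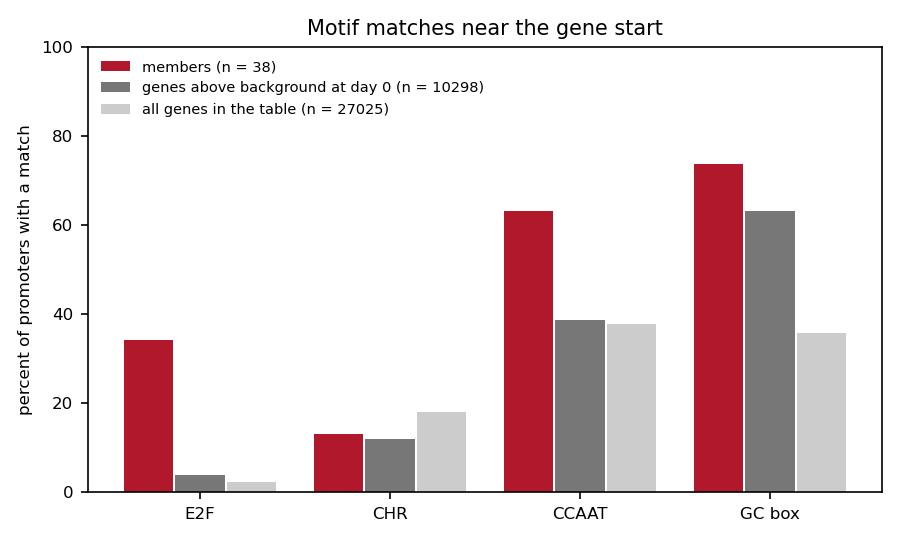
Percent of promoters (300 bases, first listed start) with at least 1 match to each motif on either strand, for 38 members, for 10298 genes above background at day 0 and for all 27025 genes in the table. The E2F bar stands at 34.2% for members, beside 4.02% and 2.32%, while the CHR bars lie between 12.1% and 18.1%.

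Other genes of the pathway, from 5 lists of 98 genes that are no members, were lower in part. At day 21 against day 0, 42 of 85 measured were at least 2-fold lower and 3 were higher, with a median of -1.0 and 4 more lower by a bound. At day 3 it was 15 of 87 lower and 1 higher, with a median of -0.41. The background shares are those given above for the same calls.

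Of 29 measured origin and fork genes, 12 were 2-fold lower at day 21 and 0 higher, with a median of -0.82. Dbf4, the activator of the kinase that fires origins, was at -3.82, the topoisomerase Top2a at -3.50, and the alternative clamp-loader subunits Dscc1 and Chtf18 at -2.67 and -2.56. Dbf4 and Dscc1 were dim at day 21, at 0.0610 and 0.0596, where the lowest detected signal was 0.0432. Ticrr, which works with Mtbp to load Cdc45, was at least 16.6-fold lower, and the checkpoint mediator Clspn at least 5.02-fold lower, both above background at day 0 and day 3 only. Timeless, of the fork protection complex, was the 1 gene at least 2-fold higher at day 3 (1.05), and it was at 0.91 at day 21.

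Genes of deoxynucleotide handling and de novo synthesis were also lower in part at day 21. In the deoxynucleotide list 6 of 14 were 2-fold lower at day 21 and 0 higher, with a median of -0.77, led by the dCMP deaminase Dctd (-2.09) and the deoxycytidine kinase Dck (-1.97), followed by Nme1 (-1.65) and Shmt1 (-1.26). Samhd1, which breaks down deoxynucleotides, had the highest difference of the list at day 21 (0.87). In purine and pyrimidine synthesis 7 of 14 were lower and 1 higher at day 21, with a median of -0.95, led by Ppat (-1.98), which catalyses the first committed step of purine synthesis, and by Atic, Umps and Impdh2 (-1.45, -1.24 and -1.24). The higher gene was Ctps2, a CTP synthase (1.01). At day 3, 0 measured genes of either list passed 2-fold, with medians of -0.13 and -0.18.

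In the list of E2F partners, pocket proteins and S-phase kinases 9 of 15 were lower at day 21 and 1 higher. Mybl2, a transcription factor of the cell cycle, was at -4.01, cyclin A2, Ccna2, at -3.70, the inhibitor of the anaphase-promoting complex Fbxo5 at -3.37, and Cdc25a at -2.00. Cdk6 was 2.11-fold lower by the plain ratio to a dim value, not above background at day 21. The higher gene was Rbl2, the pocket protein p130 of resting cells, with a relative signal of 0.193 at day 0, 0.378 at day 3 and 0.713 at day 21, 3.69-fold higher at day 21.

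Among S-phase chromatin and repair genes 8 of 13 were lower at day 21 and 1 higher, with a median of -1.22. Exo1, a nuclease of mismatch repair, was at -4.54, and the histone chaperones Asf1b and Nasp were at -3.37 and -1.60. The chromatin remodeller Hells was 6.59-fold lower by the plain ratio to a dim value, not above background at day 21. Asf1a, the paralog of Asf1b, was the higher gene, at 1.15. Asf1b had 6.28 at day 0, 2.38 at day 3 and 0.608 at day 21, whereas Asf1a had 0.0934 at day 0, 0.129 at day 3 and 0.207 at day 21. Asf1a was dim at day 0, where the lowest detected signal was 0.0592. The genes higher than 2-fold were named after their values were seen. Of 13 reference genes such as Actb and Tbp, 2 were 2-fold lower at day 21, Pgk1 (-1.68) and Gapdh (-1.16), with a median of -0.38.

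**Figure D5:**
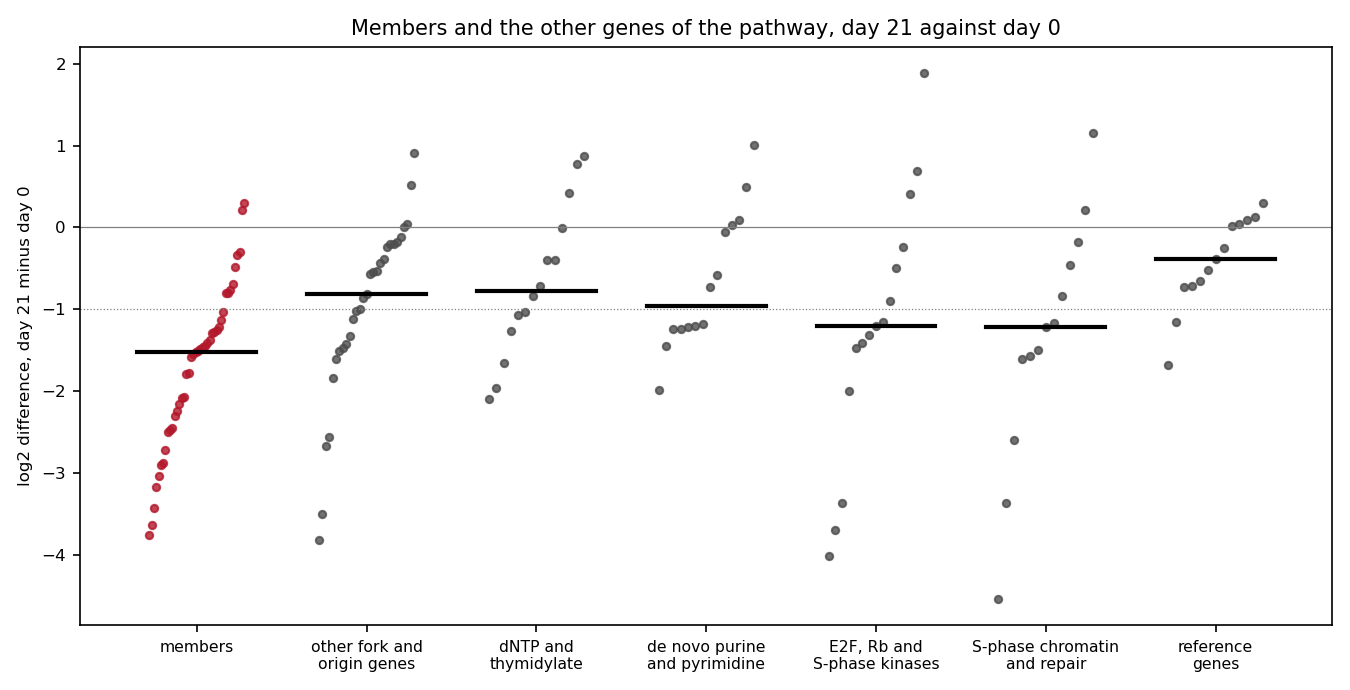
Log2 difference between day 21 and day 0 of the measured members, the 5 lists of other pathway genes and the reference genes. Each point is 1 gene, sorted within its list, bars are medians and the dotted line is 2-fold lower; the member median is -1.52 and the reference gene median is -0.38.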

How the data were processed

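The members and all lists were chosen with earlier results of these arrays known. The authors deposited 1 Agilent Feature Extraction file per array, with linear spot intensity that per the file headers was background-subtracted and detrended within the array and not scaled between arrays. The headers give Feature Extraction 10.10.1.1, the submitters' processing notes 12.0. The deposited value table held the same intensity, with a largest difference of 0. The marks per spot for well above background and for outliers are the authors' deposited ones.

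Outlier spots, 115 to 200 per array of 59305 non-control spots, were left out, and 0 were saturated. Log2 intensity minus the array's 75th percentile (172.2, 174.6 and 190.7 at day 0, 3 and 21) was averaged per probe. Probes were named through transcript accessions in a RefSeq table of GRCm38.p6: 26755 of 55664 probes matched 1 gene. A gene took its probe with the highest mean. Well above background means at least 50% of a probe's spots. No gene name column was in the files. The alternatives were other scalings (8 spike-in probes, reference genes, quantile, median of detected spots, none), normexp with limma 3.58.1 and offset 50, on median signals since the files held no mean signal, no filter, the mean over probes, the value table, and 1.5-fold and 3-fold thresholds.

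In each role group the 2 members with the lowest and the 1 with the highest day 21 difference are given on all arrays, with members not above background on an array and members whose probes disagree. Values on all arrays for Mcm6, Gins3, E2f1 and Ccne1, and for Rbl2, Asf1a and Asf1b, were added after they were seen. Up to 4 genes per list are named by the largest day 21 difference among those above background on all arrays, with those at least 2-fold lower by a bound and those 2-fold higher. One gene that this rule takes is not reported here. The number of arrays limits the precision.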

Additional observations from a re-analysis of the deposited data

How the results depend on the processing

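No paired analysis was possible because each group had 1 array, and for the same reason no replicate could be left out. Scalings shift all genes alike, so the members' median minus that of all genes stayed at -0.49, -1.31 and -0.90 (day 3 against day 0, day 21 against day 0, day 21 against day 3) under each scaling by 1 factor per array. The median over all genes itself moved to -0.65, -0.49 and 0.19 with spike-in scaling and to -0.38, 0.22 and 0.63 with reference gene scaling, from -0.08, -0.21 and -0.10. Over all genes the calls at 2-fold were then 3310 lower and 508 higher (day 3 against day 0), 3206 and 1238 (day 21 against day 0) and 464 and 1536 (day 21 against day 3) with spike-in scaling, and 1832 and 660, 1035 and 2524, and 220 and 3420 with reference gene scaling, beside 978 and 963, 2078 and 1582, and 906 and 987 in the main setting.

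With spike-in scaling the count of members at least 2-fold lower at day 3 against day 0 was 31, and the member medians in the 3 comparisons were -1.14, -1.79 and -0.71. With reference gene scaling 18 members were lower at day 3 against day 0 and 10 at day 21 against day 3, with medians of -0.87, -1.08 and -0.27. When the reference genes were centred per gene, 4 were lower at day 3 against day 0, beside 6.40% of all genes. That alternative was chosen after seeing the data. The medians for day 21 against day 0 and day 3 were then -1.12 and -0.69. Normexp gave 5 lower at day 3 against day 0, beside 4.42% of all genes. Its medians were -1.21 and -0.78 for day 21 against day 0 and day 3. At 1.5-fold 22 and 32 members were lower in day 3 against day 0 and day 21 against day 3, and at 3-fold 1, 18 and 10 were lower in the 3 comparisons. The cause was not tested, other than the threshold's own. In 1290 single member values, which count each member value under each alternative, 0 of those past 2-fold changed sign. This is no check for scalings by 1 factor per array, which moved all genes by less than 2-fold. Nor is it one for the value table, which held the same intensity. No alternative gave a member at least 2-fold higher. Dim probes limit Cdc6, Orc1 and E2f8, and E2f7 on its brighter probe, to bounds at day 21.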
